A study of Homo sapiens with 4 samples.

Results

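The lysosome is the acidic compartment in which cells break down proteins, glycans, lipids and glycogen, and it is acidified by the V-ATPase, a proton pump. The transcripts of 39 genes of this compartment were followed in the human cell line HEK293T, which derives from embryonic kidney. They were chosen by name as the rows of a table of TPM values (transcript abundance scaled for transcript length and to each library's total) that carry the symbols of lysosomal hydrolases, lysosomal membrane proteins, V-ATPase subunits or the MiT/TFE transcription factors. The choice was made with earlier results of these data known. All 39 of the 39 symbols were found among the 38972 rows, and all 39 reached the mean of 1 TPM that a gene needed to be tested. RNA was sequenced from 2 libraries labelled oeRNH1, the label for overexpression of RNase H1, an enzyme that removes the RNA strand of RNA-DNA hybrids, and from 2 libraries labelled oeFlag, the label for overexpression of the Flag tag. No other treatment or allele is named for either group, and the sources used here do not give the vector, its promoter, the delivery or the duration of overexpression. The labels do not say whether the replicates of a group were separate cultures, so p-values measure the spread between these libraries, which may be technical.

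The V-ATPase has 2 parts. The cytosolic V1 part hydrolyses ATP and turns a central stalk, and the membrane-embedded V0 part uses that rotation to carry protons into the lumen. Soluble hydrolases work best at the resulting acidic pH. Transcription of many lysosomal genes is driven by TFEB, TFE3 and MITF, the MiT/TFE factors, which the nutrient-sensing kinase complex mTORC1 holds in the cytoplasm when nutrients are plentiful. In the nucleus they bind an E-box element known as CLEAR, whose 10-base form reads GTCACGTGAC. The element was originally recognised by its recurrence upstream of lysosomal genes, so its presence in these genes is background and not a result.

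The promoter windows below are printed because the 6-base core of this element, CACGTG, stood in members called in opposite directions. Among the windows of called members printed here, only that of GAA holds the 10-base form. RefSeq windows (GRCh38.p14, 250 bases before to 50 bases after an annotated start) were found for 29 of the 39 genes, in 36 windows since some genes have several starts. LAMP2, CTSB, HEXA, NAGLU, PSAP, ATP6V0E1, ATP6V1A, ATP6V1B2, ATP6V1C1 and ATP6V1H had no entry. Capitals mark the E-box core CACGTG, which is its own reverse complement, so a match counts on both strands. The windows of ATP6V0D1 (chr16:67481108-67481407, minus strand) and NEU1 (chr6:31862772-31863071, minus strand) belong to transcripts called higher in the libraries labelled oeRNH1. Those of GAA (chr17:80101331-80101630, plus strand) and CLCN7 (chr16:1474979-1475278, minus strand) belong to transcripts called lower.
ATP6V0D1: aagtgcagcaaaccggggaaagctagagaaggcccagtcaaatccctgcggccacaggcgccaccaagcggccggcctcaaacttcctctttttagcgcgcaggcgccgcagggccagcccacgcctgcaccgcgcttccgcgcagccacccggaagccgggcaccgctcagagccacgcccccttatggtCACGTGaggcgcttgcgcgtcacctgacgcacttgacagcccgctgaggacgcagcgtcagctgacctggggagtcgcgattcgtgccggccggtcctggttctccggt
NEU1: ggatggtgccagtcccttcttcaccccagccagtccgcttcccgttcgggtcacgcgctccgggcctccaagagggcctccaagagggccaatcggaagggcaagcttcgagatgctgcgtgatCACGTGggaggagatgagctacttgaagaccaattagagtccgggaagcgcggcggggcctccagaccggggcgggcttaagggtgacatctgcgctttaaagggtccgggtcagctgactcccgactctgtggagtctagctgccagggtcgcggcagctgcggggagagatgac
GAA: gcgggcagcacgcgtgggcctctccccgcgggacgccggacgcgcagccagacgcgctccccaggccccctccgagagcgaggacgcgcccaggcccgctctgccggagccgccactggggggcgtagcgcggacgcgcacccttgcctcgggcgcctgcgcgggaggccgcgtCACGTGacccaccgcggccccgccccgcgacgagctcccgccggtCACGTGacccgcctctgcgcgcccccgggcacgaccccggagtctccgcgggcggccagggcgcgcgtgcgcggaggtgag
CLCN7: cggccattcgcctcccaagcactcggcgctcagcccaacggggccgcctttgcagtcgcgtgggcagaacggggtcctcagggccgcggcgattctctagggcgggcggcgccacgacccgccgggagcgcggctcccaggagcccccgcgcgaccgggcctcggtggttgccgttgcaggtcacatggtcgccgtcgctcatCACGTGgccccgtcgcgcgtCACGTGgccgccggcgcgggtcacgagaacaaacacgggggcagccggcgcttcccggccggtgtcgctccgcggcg

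Shorter stretches around the core are given for members that hold it and were not called in either direction, for comparison of the bases that flank it. They lie at chr1:43974891-43974938 for ATP6V0B, chr9:114587699-114587728 for ATP6V1G1, chr19:7522571-7522627 for MCOLN1 and chr20:45891281-45891327 for CTSA, all on the plus strand.
ATP6V0B: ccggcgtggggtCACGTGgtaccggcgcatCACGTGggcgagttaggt
ATP6V1G1: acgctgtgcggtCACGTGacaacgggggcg
MCOLN1: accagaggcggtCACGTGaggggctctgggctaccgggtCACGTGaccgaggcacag
CTSA: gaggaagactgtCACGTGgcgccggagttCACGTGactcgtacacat

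The core CACGTG was found in the windows of 10 of the 29 genes (34.5%), which also included CTSD and LAMP1. It was found in 8.77% of the 27305 genes with a window in the table and in 12.4% of the 11138 of these that were tested here. The 8-base word TCACGTGA, which contains the core, stood in 6 of the 29 genes (20.7%), in 1.18% of all genes with a window and in 2.18% of those tested. The 10-base word GTCACGTGAC, which contains both, stood in GAA, MCOLN1 and ATP6V1G1, against 0.421% of all genes with a window and 0.862% of those tested. The core of this word began 76 and 31 bases before the start in GAA, 58 bases before it in ATP6V1G1 and 14 bases before it in MCOLN1. A match describes the letters of the window, and binding was not measured.

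Among the 10 genes with the core, 2 were called higher (NEU1 and ATP6V0D1), 2 lower (GAA and CLCN7) and 6 were not called, where 6.30% of all tested genes were called higher and 5.54% lower. Among the 19 genes whose windows lacked it, 2 were higher (ATP6V0C and ATP6V1D), 0 were lower and 17 were not called. The median log2 fold change was 0.05 in the genes with the core and 0.06 in those without it. GAA, with 2 copies of the 10-base word, had the largest decrease of the 39 genes. LAMP1, with 6 copies of the core, had a log2 fold change of 0.05.

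**Figure D1:**
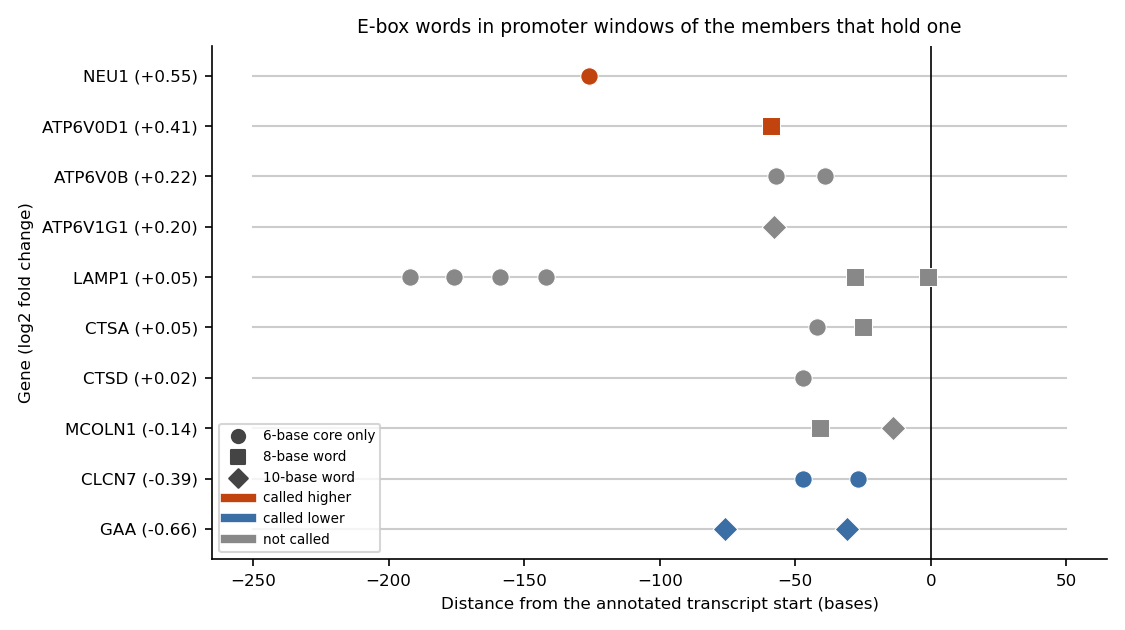
Position of the core of each E-box match in the 300-base windows of the 10 genes that hold the core. Positions are distances in bases from the annotated start (vertical line). Circles mark the 6-base core alone, squares the 8-base word and diamonds the 10-base word, colour gives the call in the libraries labelled oeRNH1 against those labelled oeFlag, and genes run from the highest log2 fold change (NEU1, 0.55) to the lowest (GAA, -0.66).

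The labels were checked on RNASEH1, the RNase H1 gene itself, whose level showed no increase. It was 29.93 and 29.67 TPM in the libraries labelled oeRNH1, against 32.09 and 32.8 TPM in those labelled oeFlag (log2 fold change -0.12 ± 0.06, SE, adjusted p = 0.260). These values go against the label, and the gene was not called in either direction. Whether transcripts of an introduced copy of the gene would be counted in this row was not tested. All directions in what follows go by the labels, oeRNH1 relative to oeFlag. They would turn round if the labels were exchanged, which was not tested. Log2 values of tested genes correlated at 0.99 within groups and at 0.98 across groups. The 8 transcripts used as HEK293T markers were all above 1 TPM in every library and summed to 1132.3 and 1116.9 TPM in the libraries labelled oeRNH1, against 1037.9 and 1058.3 TPM in those labelled oeFlag. Of 8 markers of myeloid cells, which are rich in lysosomes, 7 stayed under 1 TPM in every library, and the sum of all 8 was 2.04 and 2.27 TPM in the libraries labelled oeRNH1, against 1.81 and 1.51 TPM in those labelled oeFlag. Sums over 8 fibroblast markers were 15.6 and 19.3 TPM in the libraries labelled oeRNH1, against 20.4 and 19.96 TPM in those labelled oeFlag, nearly all of it COL1A1. Sums over 8 markers of carcinoma epithelium, of which KRT7 was at 0 throughout, were 9.94 and 10.4 TPM in the libraries labelled oeRNH1, against 6.86 and 8.16 TPM in those labelled oeFlag. The part of these marker differences in the results below was not tested.

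In the libraries labelled oeRNH1, 14 of the 15 V-ATPase transcripts had a positive log2 fold change, against 7912 of all 15651 tested genes. Of the 14 hydrolases 6 had a positive and 8 a negative one. Among 16 other tested genes for V-ATPase subunits and assembly factors, 5 were positive and 11 negative. Values were compared as log2(TPM + 1) with limma, a linear model with variances moderated over all 15651 tested genes, and log2 fold changes are given on that scale ± SE with n = 2 libraries per group. A gene was called where its two-sided p, after Benjamini-Hochberg adjustment over these genes, was under 0.05. Of the 39 genes 5 were called higher (12.8%), 2 lower (5.13%) and 32 were not called. Over all tested genes 11.8% were called, 6.30% higher and 5.54% lower, so the share called lower lay near that of all genes. The median log2 fold change of the 39 genes was 0.06, against 0.00347 for all tested genes. Groups did not overlap in 28 of the 39 genes, in 19 with both libraries labelled oeRNH1 higher (31.3% of all tested genes) and in 9 with both lower (29.4% of all tested genes). In these bulk libraries a change in the share of cells that make a transcript and a change in its amount per cell cannot be told apart.

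Counts of calls depended on the filter. When the minimum mean for testing was raised to 5 TPM, 11 of 37 members were called higher, against 11.0% of the 11245 genes tested then. With no filter 0 members were called in either direction, and likewise with variances that follow no intensity trend. At an unadjusted p under 0.05 (limma), 12 and 8 members were higher and 5 and 2 lower in these settings. Among all genes tested, 5655 of 28206 with no filter and 4337 of 15651 with no intensity trend were under it, both directions together. Without any 1 of the 4 libraries no member was called (limma), and 1 group then holds a lone library. The members called with all 4 libraries kept the sign of their log2 fold change. Values ran from 0.24 (ATP6V1H) to 0.59 (NEU1) in those higher and from -0.78 (GAA) to -0.30 (CLCN7) in those lower.

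**Figure D2:**
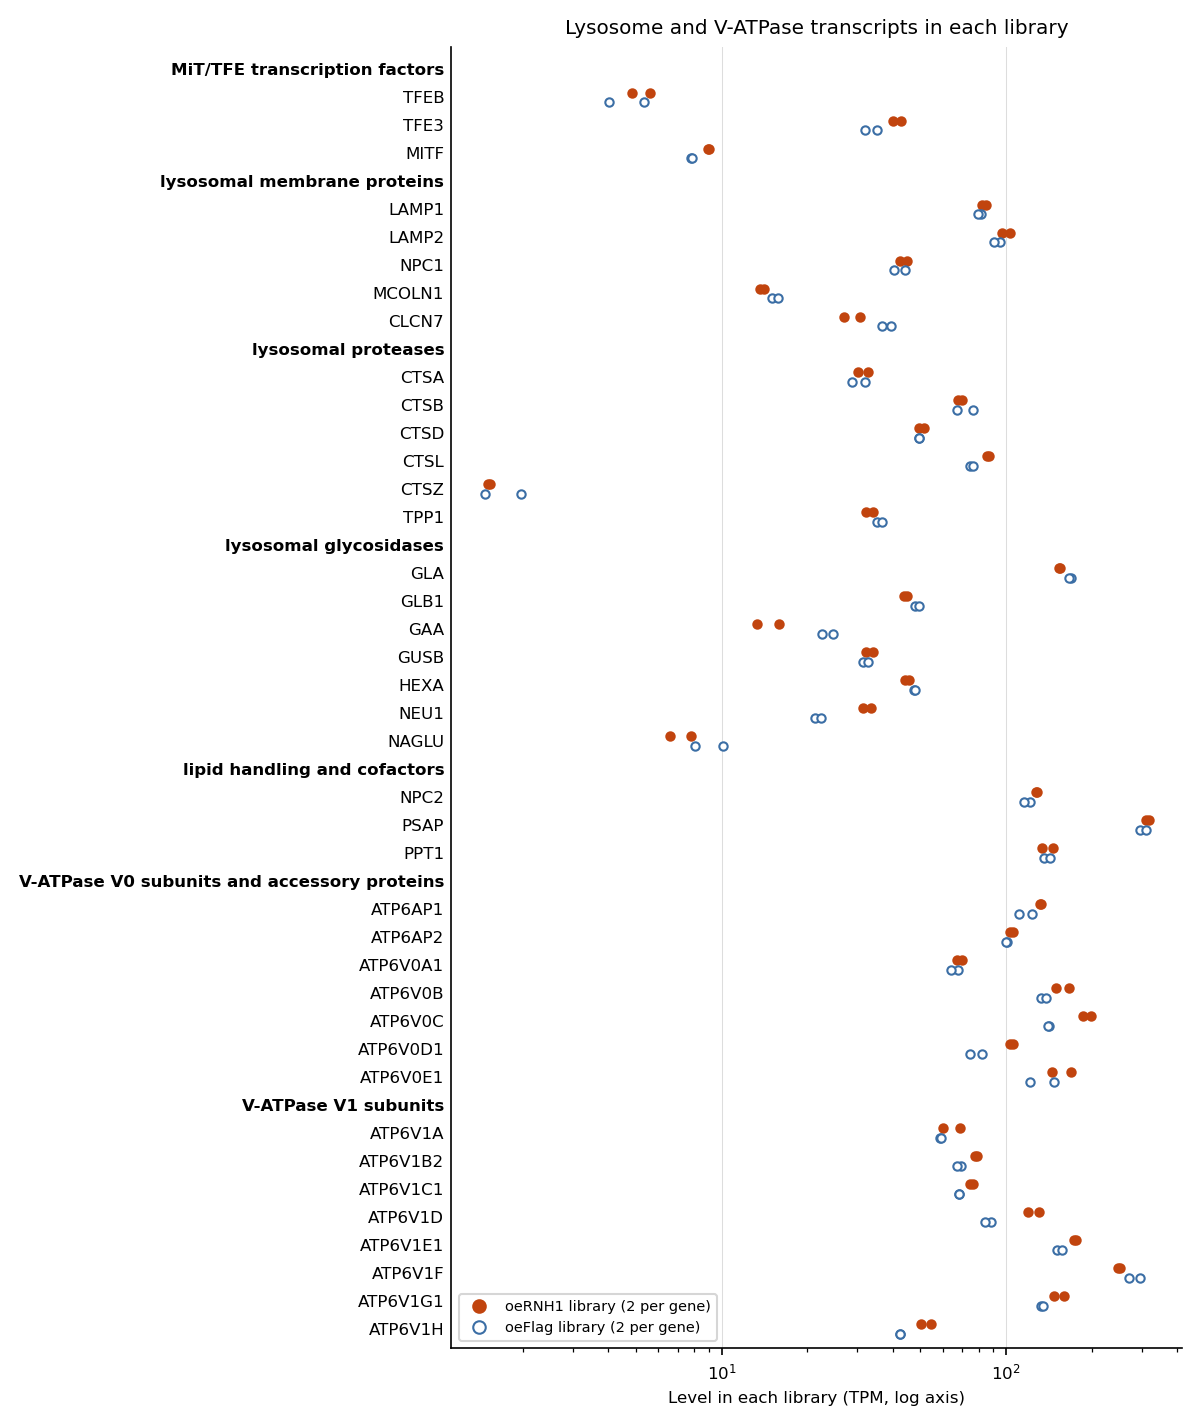
Level of each of the 39 transcripts in TPM (log axis) in the 2 libraries labelled oeRNH1 (filled, upper row of each gene) and the 2 labelled oeFlag (open, lower row), grouped by role. Levels ran from about 1.5 TPM for CTSZ to over 290 TPM for PSAP, and in 12 of 15 V-ATPase genes both filled points lay right of both open points.

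The V-ATPase members rose in 4 of 15 cases (26.7%, against 6.30% of all tested genes called higher), 0 were called lower and 11 were not called. Their median log2 fold change was 0.20, and 14 of 15 values were positive. This count of 14 held in each of the 14 alternative settings, with medians from 0.15 to 0.21. The number called higher was 8 with a minimum mean of 5 TPM, where 11.0% of all genes tested were called higher. It was 3 after GC correction, where 741 of all 15651 genes were called higher. With no filter and with no intensity trend it was 0, where 0 and 1 of all genes were called. In 12 of the 15 genes both libraries labelled oeRNH1 lay above both labelled oeFlag (31.3% of all tested genes), and in 1 gene both lay below (29.4% of all tested genes). Summed over the 15 genes, the level was 1899.7 and 1880.1 TPM in the libraries labelled oeRNH1, against 1655.3 and 1679.4 TPM in those labelled oeFlag.

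Of the V0 part and the accessory proteins, 2 of 7 transcripts rose (28.6%), 0 fell and 5 were not called, with a median log2 fold change of 0.22. Over all tested genes 6.30% were called higher and 5.54% lower. ATP6V0C encodes the c subunit, the main proteolipid of the rotating ring that carries the protons (chromosome 16, 2513870 to 2520218, plus strand, GENCODE 29 on GRCh38). It had 199.06 and 186.49 TPM in the libraries labelled oeRNH1, against 141.48 and 140.4 TPM in those labelled oeFlag. The groups were far apart relative to their spread, with a mean 1.37-fold that of the libraries labelled oeFlag and a log2 fold change of 0.45 ± 0.05 (SE, adjusted p = 0.0101). GENCODE lists 4 pseudogenes named after ATP6V0C, and 2 protein-coding genes overlap its exons on the same strand at up to 0.58 TPM, so its value is uncertain where reads could be shared.

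ATP6V0D1 encodes the d subunit, which joins the ring to the central stalk (chromosome 16, 67438014 to 67481237, minus strand). It had 103.04 and 105.91 TPM in the libraries labelled oeRNH1, against 74.8 and 82.32 TPM in those labelled oeFlag. The groups did not overlap, and the log2 fold change was 0.41 ± 0.06 (SE, adjusted p = 0.0194). ATP6V0B, the second proteolipid of the ring, had 166.18 and 149.78 TPM in the libraries labelled oeRNH1, against 132.23 and 137.84 TPM in those labelled oeFlag (log2 0.22 ± 0.06, adjusted p = 0.0698, not called). ATP6V0E1, the small e subunit, overlapped between groups, with 144.77 and 168.9 TPM in the libraries labelled oeRNH1 and 120.98 and 147.16 TPM in those labelled oeFlag. ATP6V0A1, the a subunit that forms the proton channels with the ring, was nearly level at 67.41 and 69.91 TPM in the libraries labelled oeRNH1, against 67.68 and 63.78 TPM in those labelled oeFlag (log2 0.06, 95% interval from -0.08 to 0.20). The accessory proteins ATP6AP1 and ATP6AP2, which assist assembly, had log2 fold changes of 0.16 ± 0.06 and 0.06 ± 0.05 and were not called.

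Of the V1 part, 2 of 8 transcripts rose (25%), 0 fell and 6 were not called, with a median log2 fold change of 0.19. Over all tested genes 6.30% were called higher and 5.54% lower. ATP6V1D encodes the D subunit of the rotating central stalk (chromosome 14, 67294371 to 67360265, minus strand). It had 130.31 and 119.6 TPM in the libraries labelled oeRNH1, against 88.7 and 84.29 TPM in those labelled oeFlag. This was the largest change of the 15 V-ATPase genes, 1.44-fold by the means, with a log2 fold change of 0.52 ± 0.06 (SE, adjusted p = 0.0114). Exons of ATP6V1D overlap on the opposite strand those of EIF2S1, an abundant translation initiation factor gene, which had 264.24 and 285.82 TPM in the libraries labelled oeRNH1, against 246.42 and 237.41 TPM in those labelled oeFlag. EIF2S1 had a log2 fold change of 0.18 ± 0.05 (adjusted p = 0.0718). The sources used here do not say whether counting used strand, and the part of shared reads was not tested.

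ATP6V1H encodes a regulatory subunit that governs the coupling of V1 to V0 (chromosome 8, 53715557 to 53843558, minus strand). It had 54.47 and 50.2 TPM in the libraries labelled oeRNH1, against 42.42 and 42.52 TPM in those labelled oeFlag (log2 0.29 ± 0.06, SE, adjusted p = 0.0406). The call was lost after a correction for transcript GC content (adjusted p = 0.0507), with a nearly equal fold change of 0.28. The subunits that bind ATP, ATP6V1A and ATP6V1B2, had log2 fold changes of 0.13 ± 0.08 and 0.20 ± 0.05, and neither was called. The same held for the peripheral stalk subunits ATP6V1E1 (0.18 ± 0.04, adjusted p = 0.0526) and ATP6V1G1 (0.20 ± 0.06, adjusted p = 0.0723) and for ATP6V1C1 (0.14 ± 0.05), which contacts them.

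ATP6V1F, the F subunit of the central stalk, was the exception in sign. It had 250.54 and 246.77 TPM in the libraries labelled oeRNH1, against 294.8 and 269.8 TPM in those labelled oeFlag. Both libraries labelled oeRNH1 lay below both labelled oeFlag, and the log2 fold change of -0.18 ± 0.05 was not called (adjusted p = 0.0764). It thus ran opposite to ATP6V1D, its partner in the same stalk, and the difference between the genes was not tested. In TPM, ATP6V1F was the most abundant and ATP6V1H the least abundant of the 15 in every library. In the libraries labelled oeRNH1 ATP6V0C lay above ATP6V1E1 (176.14 and 173.42 TPM), while in those labelled oeFlag it lay below ATP6V1E1 (151.32 and 157.24 TPM).

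Several V-ATPase subunits are encoded by alternative genes, whose products mark particular tissues, and the listed genes were the main form of each here. Of the transcripts for subunit a, ATP6V0A1 made up 63.8% and 66.4% in the libraries labelled oeRNH1, against 62.4% and 61.8% in those labelled oeFlag. ATP6V0A2, a form found in the Golgi, made up 28.6% and 26.3% in the libraries labelled oeRNH1, against 29.4% and 26.1% in those labelled oeFlag. TCIRG1, the form of bone-resorbing osteoclasts, had 7.97 and 7.7 TPM in the libraries labelled oeRNH1, against 8.84 and 12.39 TPM in those labelled oeFlag, and was not called (log2 -0.38 ± 0.16, adjusted p = 0.170). ATP6V0D1, ATP6V1B2, ATP6V1C1, ATP6V1E1 and ATP6V1G1 each made up at least 91.4% of the transcripts of their subunit in every library. ATP6V0E1 made up 79.7% and 83.1% of the e transcripts in the libraries labelled oeRNH1, against 76.5% and 79.0% in those labelled oeFlag. ATP6V1G3 was listed at 0 in all 4 libraries.

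Of 20 further names for V-ATPase subunits and assembly factors 18 were in the table and 16 were tested, and 0 were called in either direction (limma). Their median log2 fold change was -0.05, with 5 positive and 11 negative values. RNASEK, a small V-ATPase-associated protein, was abundant at a mean of 211 TPM in the libraries labelled oeRNH1 and 196 TPM in those labelled oeFlag (log2 0.10 ± 0.04, not called).

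**Figure D3:**
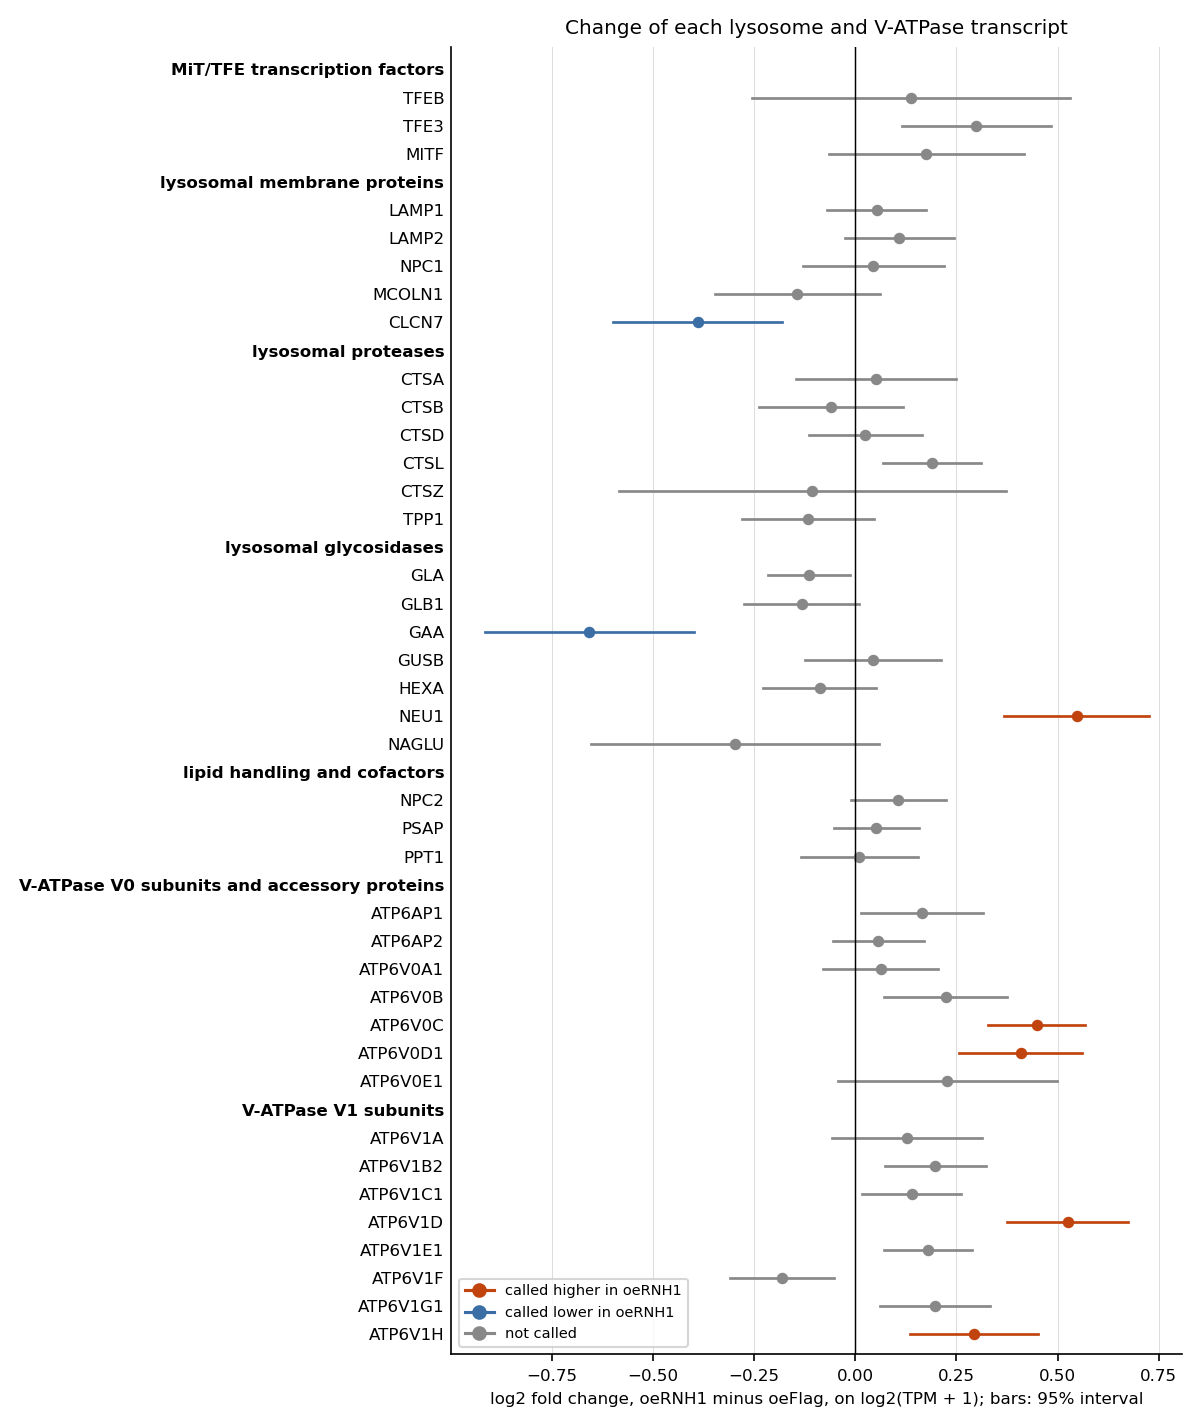
Log2 fold change of each of the 39 transcripts, libraries labelled oeRNH1 minus those labelled oeFlag, on the log2(TPM + 1) scale, with 95% intervals from limma and the call by colour. NEU1, ATP6V0C, ATP6V0D1, ATP6V1D and ATP6V1H lie to the right with calls, GAA and CLCN7 to the left, and ATP6V1F is the only V-ATPase gene left of 0.

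Among the 14 hydrolases 1 rose (7.14%) and 1 fell (7.14%), near the 6.30% higher and 5.54% lower of all tested genes, and 12 were not called, with a median log2 fold change of -0.07. Their summed level was 745.8 and 739.0 TPM in the libraries labelled oeRNH1, against 742.0 and 766.3 TPM in those labelled oeFlag. Of these, 7 are glycosidases, which remove sugars from glycans, and in 5 of the 7 both libraries labelled oeRNH1 lay below both labelled oeFlag (29.4% of all tested genes). NEU1, a sialidase that removes terminal sialic acids (chromosome 6, 31857659 to 31862906, minus strand), had the largest increase of the 39 genes. It had 31.35 and 33.48 TPM in the libraries labelled oeRNH1, against 21.38 and 22.36 TPM in those labelled oeFlag. Its mean was 1.48-fold that of the libraries labelled oeFlag (log2 0.55 ± 0.07, SE, adjusted p = 0.0155). NEU1 is active in a complex with the protective protein CTSA and the galactosidase GLB1. CTSA overlapped between groups, with 30.22 and 32.63 TPM in the libraries labelled oeRNH1 and 28.77 and 31.84 TPM in those labelled oeFlag. GLB1 was at 44.86 and 43.87 TPM in the libraries labelled oeRNH1, against 47.9 and 49.58 TPM in those labelled oeFlag (log2 -0.13 ± 0.06, adjusted p = 0.183).

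GAA, the acid alpha-glucosidase that degrades glycogen in the lysosome and is deficient in Pompe disease (chromosome 17, 80101556 to 80119879, plus strand), fell. It had 15.92 and 13.34 TPM in the libraries labelled oeRNH1, against 24.55 and 22.62 TPM in those labelled oeFlag. Every library labelled oeRNH1 was below every library labelled oeFlag, and the log2 fold change was -0.66 ± 0.11 (SE, adjusted p = 0.0220), a mean 0.620 times that of the libraries labelled oeFlag. GLA, the alpha-galactosidase, was the most abundant glycosidase at 154.01 and 154.83 TPM in the libraries labelled oeRNH1, against 168.52 and 165.99 TPM in those labelled oeFlag (log2 -0.11 ± 0.04, adjusted p = 0.124). NAGLU and HEXA, which act on glycosaminoglycans and gangliosides, had log2 fold changes of -0.30 ± 0.15 and -0.09 ± 0.06 and were not called. GUSB, a beta-glucuronidase often used as a reference gene, had 32.07 and 34.0 TPM in the libraries labelled oeRNH1 and 31.31 and 32.73 TPM in those labelled oeFlag.

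None of the 6 proteases was called. CTSL, a cysteine cathepsin, came nearest, at 85.47 and 86.88 TPM in the libraries labelled oeRNH1, against 74.61 and 76.35 TPM in those labelled oeFlag (log2 0.19 ± 0.05, adjusted p = 0.0600). The aspartic protease CTSD was level, at 49.27 and 51.46 TPM in the libraries labelled oeRNH1 and 49.41 and 49.54 TPM in those labelled oeFlag, with a 95% interval of the log2 difference from -0.12 to 0.17. CTSB was at 69.89 and 67.7 TPM in the libraries labelled oeRNH1, against 67.32 and 76.49 TPM in those labelled oeFlag, and TPP1 had a log2 fold change of -0.12 ± 0.07. CTSZ was the least abundant member, at 1.53 and 1.51 TPM in the libraries labelled oeRNH1 and 1.47 and 1.98 TPM in those labelled oeFlag (95% interval of the log2 difference from -0.58 to 0.37). The lipid-handling members PPT1, a thioesterase, PSAP, the precursor of the saposins, and NPC2, which passes cholesterol to NPC1, had log2 fold changes of 0.01, 0.05 and 0.11, with the smallest adjusted p of 0.195 for NPC2. NPC2 had 127.18 and 128.9 TPM in the libraries labelled oeRNH1, against 121.84 and 116.01 TPM in those labelled oeFlag.

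Of the 5 membrane proteins 0 rose, 1 fell (20%) and 4 were not called, where 6.30% of all tested genes were called higher and 5.54% lower. CLCN7, a chloride-proton exchanger of the lysosomal membrane (chromosome 16, 1444934 to 1475580, minus strand), had 26.89 and 30.76 TPM in the libraries labelled oeRNH1, against 36.76 and 39.28 TPM in those labelled oeFlag. The groups did not overlap, and the log2 fold change was -0.39 ± 0.09 (SE, adjusted p = 0.0408). OSTM1, its obligate partner protein, was named after its values were seen, and was at 27.44 and 26.64 TPM in the libraries labelled oeRNH1, against 23.27 and 21.86 TPM in those labelled oeFlag (log2 0.25 ± 0.07, adjusted p = 0.0762, not called). The calcium channel MCOLN1 had a log2 fold change of -0.14 ± 0.08 and the cholesterol transporter NPC1 one of 0.04 ± 0.07. MCOLN1 was at 13.68 and 14.08 TPM in the libraries labelled oeRNH1, against 15.09 and 15.78 TPM in those labelled oeFlag. Its exons overlap on the same strand those of PNPLA6, which had up to 21.62 TPM, and the part of shared reads was not tested. LAMP1 and LAMP2, the abundant glycoproteins that coat the inner membrane face, were abundant in every library. In the libraries labelled oeRNH1 LAMP1 had 82.57 and 84.72 TPM and LAMP2 had 103.23 and 97.11 TPM. In those labelled oeFlag LAMP1 had 81.41 and 79.82 TPM and LAMP2 had 94.84 and 90.75 TPM. Their log2 fold changes of 0.05 and 0.11 had upper 95% bounds of 0.17 and 0.24.

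The MiT/TFE factors were not called. TFE3, the most abundant of the 3, had 40.18 and 42.89 TPM in the libraries labelled oeRNH1, against 31.96 and 35.22 TPM in those labelled oeFlag. Its groups did not overlap, and its log2 fold change of 0.30 ± 0.08 lay just outside the threshold (adjusted p = 0.0553). It passed after correction for GC content (adjusted p = 0.0375) and with a minimum mean of 5 TPM, and did not pass with no filter (adjusted p = 0.145), with no intensity trend (0.131), under quantile normalization (0.0679) or with a library left out (0.147 to 0.221). MITF was at 8.93 and 9.05 TPM in the libraries labelled oeRNH1, against 7.79 and 7.9 TPM in those labelled oeFlag (log2 0.18 ± 0.10). TFEB was low and overlapped between groups, at 5.58 and 4.86 TPM in the libraries labelled oeRNH1 and 4.03 and 5.33 TPM in those labelled oeFlag. These values are transcript levels, and the location of the proteins in the cell, by which the factors are mainly controlled, was not measured.

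GC content of the transcript moved with the change. Across the 39 genes the log2 fold change correlated with the GC percentage of the longest transcript at r = -0.35 (Spearman -0.34), and across 15323 tested genes with a gene model at r = -0.19 (Spearman -0.22), as a description of genes that share the same 4 libraries. The transcripts that fell were among the richest in GC, GAA at 64.1% and CLCN7 at 64.9%, against a median of 51.6% for the 39 genes. After the correction for GC content CLCN7 was no longer called (log2 -0.27, adjusted p = 0.0849), while GAA stayed called (log2 -0.54, adjusted p = 0.0457). ATP6V0C, at 63.6% GC, rose by 0.56 after that correction, against 0.45 before it.

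The wider pathway was described by lists of other genes, chosen with earlier results of these data known, so their shares are a description and no test. Genes of autophagy, the delivery of cytoplasm to lysosomes, rose in 8 of 26 tested cases (30.8%, against 6.30% of all tested genes called higher), with 0 lower and 18 not called and a median log2 fold change of 0.13. MAP1LC3B, the ubiquitin-like protein that coats autophagosomes, had 238.13 and 226.32 TPM in the libraries labelled oeRNH1, against 150.96 and 148.28 TPM in those labelled oeFlag (log2 0.63 ± 0.05, SE, adjusted p = 0.00521). SQSTM1, the cargo receptor p62, had 198.68 and 191.4 TPM in the libraries labelled oeRNH1, against 137.36 and 145.26 TPM in those labelled oeFlag (log2 0.46 ± 0.05, adjusted p = 0.00990). ATG101, of the kinase complex that starts autophagy, had 48.39 and 46.24 TPM in the libraries labelled oeRNH1, against 32.76 and 31.02 TPM in those labelled oeFlag (log2 0.55 ± 0.07, adjusted p = 0.0116). GABARAPL1, ATG13, WIPI1, ATG12 and ATG14 were the other members called. After GC correction 6 of the 26 were called higher, against 741 of all 15651 tested genes. With no filter or with no intensity trend 0 were called higher.

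Genes of mTORC1 nutrient sensing at the lysosome rose in 4 of 23 tested cases (17.4%, against 6.30% of all tested genes), fell in 1 (4.35%, against 5.54%) and were not called in 18, with a median of 0.10. The members that rose were SESN2, a leucine sensor that restrains mTORC1 (log2 0.39 ± 0.06), RRAGC, a Rag GTPase that recruits it (0.34 ± 0.06), LAMTOR3, of the Rag anchor (0.31 ± 0.06), and FNIP1, a partner of folliculin (0.42 ± 0.08). MLST8, a subunit of mTORC1, fell to 28.39 and 26.3 TPM in the libraries labelled oeRNH1, against 34.14 and 38.88 TPM in those labelled oeFlag. These genes include positive and negative regulators of the same complex. After GC correction 3 genes of this list were called higher and 0 lower, against 741 higher and 669 lower of all 15651 tested genes. The calls of LAMTOR3 and MLST8 were then lost, and 0 genes of the list were called with no filter or with no intensity trend.

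The remaining lysosomal lists are given beside the 6.30% higher and 5.54% lower of all tested genes. Of 26 other membrane proteins 1 rose (3.85%), 3 fell (11.5%) and 22 were not called, with a median of 0.05. ABCA2, a lipid transporter of lysosomes, fell to 10.12 and 9.65 TPM in the libraries labelled oeRNH1, against 23.72 and 25.04 TPM in those labelled oeFlag (log2 -1.22 ± 0.08, adjusted p = 0.00497), more than any of the 39 members. LAPTM4A rose by 0.24 ± 0.05, and the calcium and sodium channel TPCN1 fell by 0.59 ± 0.14, a call lost also under quantile normalization and median-of-ratios scaling. Of 38 other hydrolases and cofactors 1 rose (2.63%), 0 fell and 37 were not called, with a median of -0.0023. Of 18 genes that sort hydrolases to lysosomes 0 rose, 1 fell (5.56%, the adaptor GGA1, by 0.27 ± 0.06) and 17 were not called. Of 17 genes of lysosome fusion 1 rose (5.88%), 1 fell (5.88%) and 15 were not called. VPS18, of the HOPS tethering complex, rose by 0.41 ± 0.10, and BORCS5, of a lysosome positioning complex, fell by 0.55 ± 0.12. The calls of LAPTM4A, TPCN1, TMEM63A (the other membrane protein that fell) and GGA1 were lost after GC correction, and none of the calls in these lists was made with no filter, with no intensity trend or without any 1 of the 4 libraries.

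**Figure D4:**
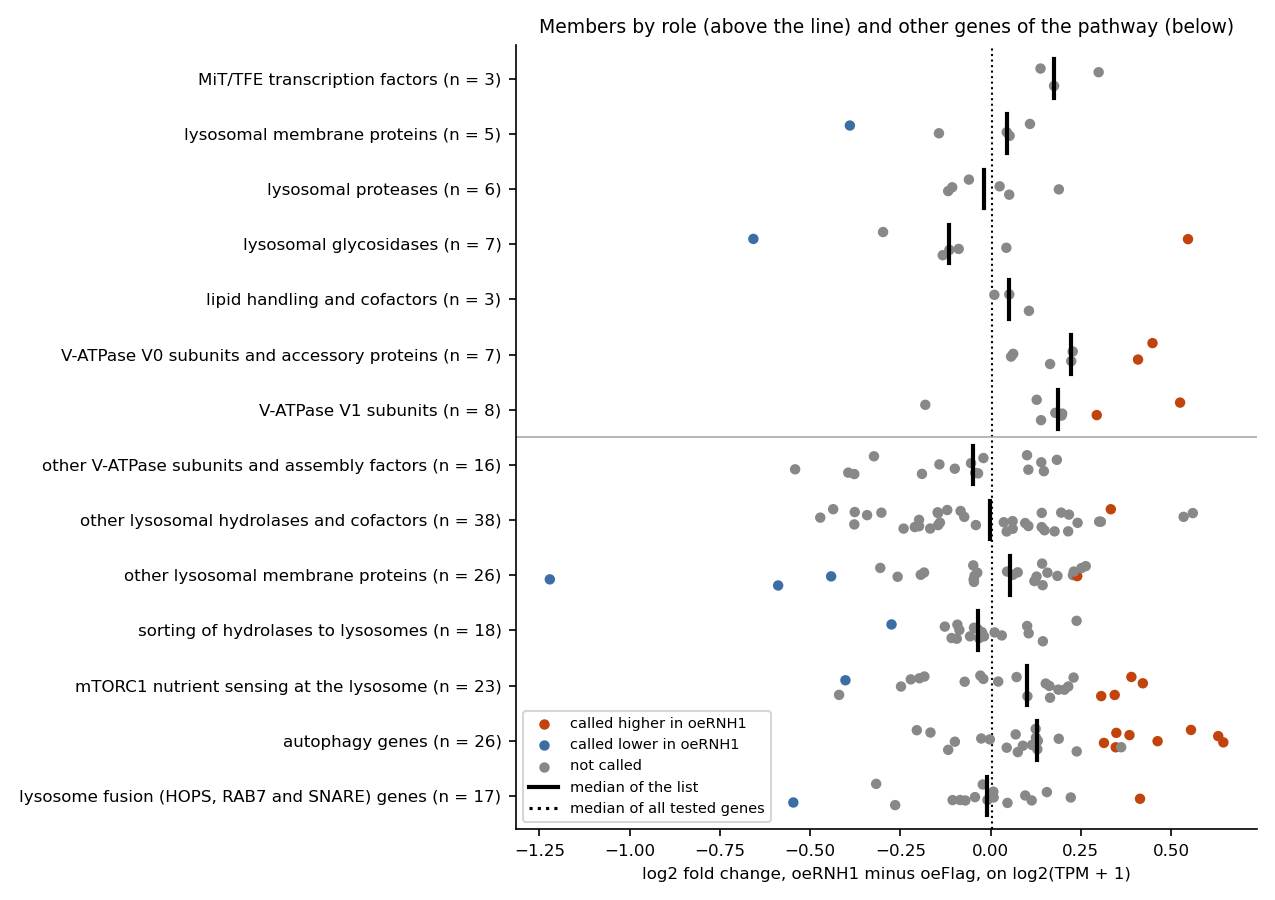
Log2 fold change of every tested gene, libraries labelled oeRNH1 minus those labelled oeFlag, for the members by role (above the line) and for lists of other genes of the pathway (below it). Points are genes coloured by call, thick bars are list medians, and the dotted line is the median of all tested genes at 0.00347. The V0 and V1 lists have medians of 0.22 and 0.19, and the autophagy list holds 8 called genes, all to the right.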

How the data were processed

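RNA sequencing of 2 libraries labelled oeRNH1 and 2 labelled oeFlag was analysed from 1 table. The authors deposited TPM values per gene, 1 column per library, which totalled 998901 to 998955 per library. STAR and hg38 are named in the submitters' processing notes, and per the labels' protocols RNA was extracted with TRIzol and libraries came from a VAHTS mRNA-seq kit. The sources used here do not give the quantification program, annotation release, versions or strand setting. TPM keeps no depth, so depth is unknown and no counting interval is given.

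Groups were taken from the sample titles. Values were transformed to log2(TPM + 1), and genes averaging 1 TPM or more were tested with limma 3.58.1 in R 4.3.3 (group term, variances with an intensity trend, two-sided, Benjamini-Hochberg over 15651 genes). Fold changes on this scale understate changes of low genes. The procedure was tested on simulated data. Gene spans, exons and GC content came from GENCODE release 29, and promoter windows from RefSeq (GRCh38.p14). Exons of 18 of the 39 members overlap those of another gene and 6 members have named pseudogenes, so their values may hold shared reads. Figures were drawn with matplotlib 3.10.9.

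The members and lists were chosen with earlier results of these data known. Genes named are RNASEH1, all members, and from each other list up to 3 called genes with the smallest p, or, with 0 called, the gene with the smallest p. The other autophagy and mTORC1 genes, TMEM63A, RNASEK, ATP6V0A2, ATP6V1G3, OSTM1, EIF2S1, PNPLA6, ISCA2, PLTP, CAP1 and RMC1 were named after their values were seen. The gene called among the other hydrolases is not reported here. Alternatives were pseudocounts of 0.1 and 5, quantile normalization, no filter, median-of-ratios scaling, a minimum mean of 5 TPM, variances without a trend or with robust moderation, the replicate number as a block, a spline on GC content with 4 degrees of freedom, and leaving out each library.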

Additional observations from a re-analysis of the deposited data

How the results depend on the processing

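The 5 members called higher and 2 called lower by limma became 0 and 0 with no filter, with variances that follow no intensity trend, and without each of the 4 libraries (0 to 0 for both directions). Over all genes the 1853 calls became 0, 1 and 0 to 15 in these settings, where 5655, 4337 and 3367 to 4035 genes had an unadjusted p under 0.05, and the 21 calls in the other lists became 0 in each. At an unadjusted p under 0.05, 12 members were higher and 5 lower with no filter, and 8 higher and 2 lower with no trend. Leaving out 1 library leaves a lone library in an arm, which is assumed to vary like the other arm. With a minimum mean of 5 TPM 11 members were called higher, adding TFE3, CTSL, ATP6V0B, ATP6V1B2, ATP6V1E1 and ATP6V1G1. With the replicate block 8 were higher, adding TFE3, ATP6V0E1 and ATP6V1G1, and ATP6V1F was called lower. The labels give only a number and do not say whether same-numbered libraries were paired. Deviations of same-numbered libraries correlated at 0.0307 across genes, which does not decide it. After GC correction 1 member was called lower and the other lists had 13 calls, and the cause of these losses was not tested further. The members' median log2 fold change stayed positive, between 0.051 and 0.088. Pseudocounts, both scalings and robust moderation kept the counts of members within 1.5 times. Signs turned for members near 0 that were never called. PPT1 was at -0.011 under quantile normalization and -0.018 after GC correction. Leaving out 1 library, PPT1 ranged from -0.054 to 0.074, TFEB from -0.028 to 0.30, NPC1 from -0.019 to 0.11, CTSA from -0.019 to 0.12, CTSB from -0.15 to 0.031, CTSD from -0.0059 to 0.056 and CTSZ from -0.24 to 0.029. Depth is unknown, and 2 libraries a group limit what can be called.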

Other observations

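Genes that share exons with a member on the opposite strand were looked at after their values were seen, and the pairs below are a selection. ISCA2 (up to 44.83 TPM), which overlaps NPC2, and PLTP (up to 21.32 TPM), which overlaps CTSA, are among those whose changes are not given. RMC1, a subunit of the complex that activates RAB7 on late endosomes, overlaps NPC1 and was called higher, at 40.2 and 34.12 TPM in the libraries labelled oeRNH1, against 27.92 and 27.19 TPM in those labelled oeFlag (log2 0.41 ± 0.09, SE, limma adjusted p = 0.0408). NPC1 itself had a log2 fold change of 0.04. CAP1, an actin-binding protein gene that overlaps PPT1, had 226.95 and 212.42 TPM in the libraries labelled oeRNH1, against 193.37 and 195.2 TPM in those labelled oeFlag (log2 0.18 ± 0.05, limma adjusted p = 0.0663), while PPT1 had a log2 fold change of 0.01. The difference between the genes of each pair was not tested.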
